A study of Mus musculus with 9 samples.

Results

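The 10 genes described here encode proteins of major histocompatibility complex (MHC) class I antigen presentation: B2m, H2-K1, H2-D1, H2-Q4, Tap1, Tap2, Tapbp, Psmb8, Psmb9 and Nlrc5. They were taken by symbol from a count table of 26683 genes and were chosen for their known function. RNA was measured by bulk RNA sequencing of mouse retina at postnatal day 17, in 3 libraries for each of 3 groups. In the Gel group, the vitreous of mice with oxygen-induced retinopathy (OIR) had been injected on postnatal day 15 with a hydrogel named PCC1/PHCF, and the title of the series describes its sustained release of procyanidin C1 (PCC1), a plant polyphenol. PBS libraries came from OIR mice that had received PBS into the vitreous on the same day. Normoxic libraries came from mice kept under normal oxygen, and the labels name no injection for them. In OIR, pups are first kept in high oxygen, which halts the growth of their retinal vessels, and abnormal vessels then form once they breathe normal air again. No group with a hydrogel lacking PCC1 was analysed here, and the sources used here do not give the strain, the sex or the number of animals per library. The labels do not say that libraries of a group are separate animals, so each p-value measures the spread between these samples, which may be technical.

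MHC class I molecules show peptides from inside a cell at its surface, where CD8 T cells and natural killer (NK) cells read them. Proteasomes cut proteins into peptides, the TAP transporter moves the peptides into the endoplasmic reticulum, and tapasin helps to load them onto a heavy chain paired with beta-2-microglobulin. Interferons raise most genes of this route, in part through IRF1 and the class I transactivator NLRC5. The neural retina is known as a tissue with low class I levels, in which microglia and vessel cells are prominent carriers of these molecules.

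In the mouse, 8 of the 10 genes lie on chromosome 17, which carries the H-2 complex. B2m lies on chromosome 2 and Nlrc5 on chromosome 8. In RefSeq gene order, Psmb9, Tap1, Psmb8 and Tap2 are 4 consecutive protein-coding genes. Tap1 and Psmb9 start 226 bases apart and are read in opposite directions, so their promoter windows share 275 bases. RefSeq promoter windows, from 250 bases before to 50 bases after a gene's start on GRCm38.p6, were matched by symbol for 8 of the 10 genes, all but Tap2 and Nlrc5. The windows of the light chain and of the 3 heavy chains are shown because these 4 genes were called in both OIR groups against Normoxic. That of Tap1 is shown because Psmb9 shares it. They lie at chr2:122147437-122147736 on the plus strand for B2m, chr17:34000284-34000583 on the minus strand for H2-K1 (the second of its 2 listed starts), chr17:35262844-35263143 on the plus strand for H2-D1, chr17:35379367-35379666 on the plus strand for H2-Q4 and chr17:34187306-34187605 on the plus strand for Tap1. Each is written 5′ to 3′ on the gene's own strand. Capitals mark matches, on either strand, to an interferon regulatory factor (IRF) core AANNGAAA, an NF-kB-like pattern (GGG, any 5 bases, CC) or a CCAAT box.
B2m: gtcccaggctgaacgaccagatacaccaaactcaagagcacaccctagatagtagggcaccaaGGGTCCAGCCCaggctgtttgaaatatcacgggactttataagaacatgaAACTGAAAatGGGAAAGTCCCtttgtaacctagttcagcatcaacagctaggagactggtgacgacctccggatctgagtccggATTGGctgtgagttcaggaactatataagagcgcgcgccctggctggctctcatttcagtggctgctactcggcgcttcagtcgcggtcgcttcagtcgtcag
H2-K1: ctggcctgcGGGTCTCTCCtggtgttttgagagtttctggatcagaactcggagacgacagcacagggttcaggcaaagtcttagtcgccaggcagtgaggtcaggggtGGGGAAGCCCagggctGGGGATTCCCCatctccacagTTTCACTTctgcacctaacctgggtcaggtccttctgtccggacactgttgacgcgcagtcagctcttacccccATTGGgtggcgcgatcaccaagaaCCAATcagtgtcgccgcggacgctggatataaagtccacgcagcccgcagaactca
H2-D1: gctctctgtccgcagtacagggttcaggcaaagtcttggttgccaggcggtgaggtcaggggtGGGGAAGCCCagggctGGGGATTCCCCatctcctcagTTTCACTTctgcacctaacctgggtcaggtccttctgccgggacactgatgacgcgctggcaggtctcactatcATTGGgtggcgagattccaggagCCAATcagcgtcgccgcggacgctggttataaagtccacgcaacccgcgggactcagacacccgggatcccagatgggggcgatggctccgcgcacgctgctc
H2-Q4: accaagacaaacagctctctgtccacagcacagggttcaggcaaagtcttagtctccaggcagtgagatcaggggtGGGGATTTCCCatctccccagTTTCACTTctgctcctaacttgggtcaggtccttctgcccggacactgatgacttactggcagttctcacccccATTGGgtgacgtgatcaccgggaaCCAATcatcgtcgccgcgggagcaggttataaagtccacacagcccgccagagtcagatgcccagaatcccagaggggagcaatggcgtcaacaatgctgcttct
Tap1: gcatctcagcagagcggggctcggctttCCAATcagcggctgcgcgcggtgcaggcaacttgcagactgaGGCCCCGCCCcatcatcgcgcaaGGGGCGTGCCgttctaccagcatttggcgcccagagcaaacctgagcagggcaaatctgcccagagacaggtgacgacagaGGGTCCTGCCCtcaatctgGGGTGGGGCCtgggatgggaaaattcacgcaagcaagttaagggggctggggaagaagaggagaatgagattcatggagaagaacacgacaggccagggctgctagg

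The IRF core AANNGAAA was present in the windows of B2m, H2-K1, H2-D1 and H2-Q4, 4 of the 8 genes with a window, and in 23.9% of all 32851 mouse promoter windows of the same length. Counted from the start, it lay at positions -137 to -130 in B2m, -104 to -97 in H2-K1, -150 to -143 in H2-D1 and -153 to -146 in H2-Q4. The longer interferon-stimulated response element (GAAA, any 2 bases, GAAA), which contains the core, was found for B2m alone among the 8 genes and in 3.44% of all windows. The gamma-activated pattern TTCNNNGAA was found for Psmb8 alone and in 8.3% of all windows. The NF-kB-like pattern occurred for 6 of the 8 genes against 50.8% of all windows, CCAAT for 7 against 37.4%, and TGACG, a part of the X box of MHC promoters, for 6 against 20.8%. Tap1 and Psmb9 share 275 bases, and the heavy chain windows resemble each other, so these counts are not of independent windows. The 3 heavy chain windows were 83.1% to 88.9% identical to each other over the bases aligned without a gap, 248 to 284 per pair. They share a run of 21 bases, while the windows of B2m and H2-D1 were 53.3% identical over 274 aligned bases. A match to letters is a description of the window and shows no binding.

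All 10 genes passed the filter on low counts, as did 65.1% of the genes in the table. Total counts ran from 29324142 to 35663470 per library. The 8 rod photoreceptor markers summed to 46960 to 65653 CPM (counts in parts per 1e+06 of a library's total), a level that fits the label of retina. PBS 3 stood apart: in it, counts of a gene relative to the other PBS libraries fell with gene length (Spearman -0.49 across genes), against 0.32 in PBS 1, 0.41 in PBS 2, -0.29 to 0.32 in Gel and -0.05 to 0.03 in Normoxic libraries. The batch date in the labels was the same for all 9.

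The class I genes were higher in PBS retinas than in Normoxic retinas. The edgeR quasi-likelihood test, with p-values adjusted over all 17362 genes tested, called 9 of the 10 higher at an adjusted p under 0.05, all but Tap2, and none lower, where 4.31% of all genes tested were called higher and 2.03% lower. CPM of the PBS and Normoxic libraries did not overlap for 10 of the 10 genes, all higher in PBS, as for 14.9% of all genes tested. The median log2 fold change of the 10 genes was 1.59, against 0.01 for all genes tested. The gains were largest for B2m and Nlrc5 and smallest for Tap2 and Tapbp. Leaving out 1 library at a time gave between 6 calls, without Normoxic 1 or Normoxic 3, and 10 calls, without PBS 3.

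**Figure D1:**
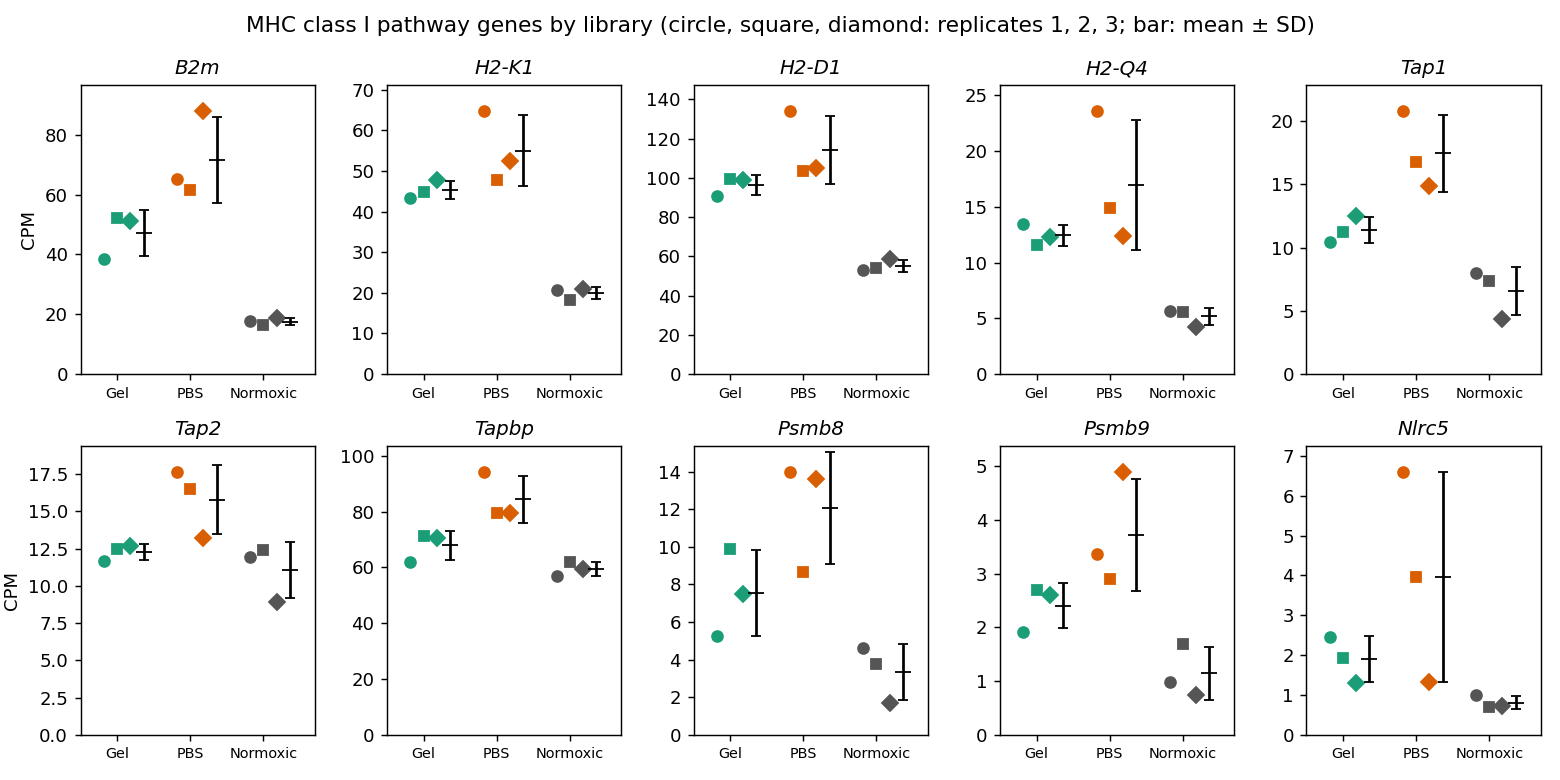
CPM (linear axes from 0) of the 10 class I pathway genes in the 3 Gel, 3 PBS and 3 Normoxic libraries, 1 panel per gene; circles, squares and diamonds are replicates 1, 2 and 3, and the bar is the mean ± SD. All PBS points lie above all Normoxic points in each panel, from B2m (61.6 to 87.8 against 16.3 to 18.7 CPM) to Tapbp (79.4 to 94.2 against 56.8 to 62.1 CPM).

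B2m (Entrez 12010) encodes beta-2-microglobulin, the light chain that every classical class I molecule needs to reach the cell surface. It had 38.4, 52.1 and 51.3 CPM in Gel libraries 1 to 3, 65.2, 61.6 and 87.8 CPM in PBS libraries, and 17.7, 16.3 and 18.7 CPM in Normoxic libraries. The 3 groups did not overlap, with every Gel library between the highest Normoxic and the lowest PBS library. B2m rose in PBS retinas to 71.6 ± 14.2 CPM, against 17.6 ± 1.19 CPM in Normoxic retinas (SD, n = 3 each), a log2 fold change of 2.04 ± 0.18 (SE; 4.12-fold; edgeR adjusted p = 0.000229). It also rose in Gel retinas, to 47.3 ± 7.67 CPM, against the same Normoxic libraries, with a log2 fold change of 1.44 ± 0.18 (2.71-fold; edgeR adjusted p = 0.00365). Both calls were kept in all 16 alternative analyses.

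H2-K1 (Entrez 14972) and H2-D1 (Entrez 14964) encode the classical heavy chains K and D, which hold the peptide. H2-K1 had 43.4, 44.9 and 47.8 CPM in Gel libraries, 64.7, 47.8 and 52.4 CPM in PBS libraries, and 20.7, 18.2 and 21.0 CPM in Normoxic libraries. Gel 3 and PBS 2 nearly touched, and both stood far above every Normoxic value. H2-K1 rose in PBS retinas, 2.78-fold over Normoxic (log2 1.47 ± 0.13 SE, edgeR adjusted p = 0.000229), and in Gel retinas, 2.29-fold over Normoxic (log2 1.19 ± 0.13, edgeR adjusted p = 0.00187). H2-D1 had 90.6, 99.6 and 98.9 CPM in Gel libraries, 134, 103 and 105 CPM in PBS libraries, and 52.9, 54.3 and 58.5 CPM in Normoxic libraries. Its groups did not overlap either, and PBS 1 lay well above the other 5 OIR libraries. H2-D1 rose 2.08-fold in PBS over Normoxic retinas (log2 1.06 ± 0.12, edgeR adjusted p = 0.000867). Gel over Normoxic retinas showed a 1.76-fold rise (log2 0.81 ± 0.12, edgeR adjusted p = 0.00943), a call lost without Normoxic 1, Normoxic 2 or Gel 2, where the adjusted p was up to 0.0721.

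H2-Q4 (Entrez 15015) encodes a nonclassical Qa-region heavy chain. It had 13.5, 11.6 and 12.3 CPM in Gel libraries, 23.6, 14.9 and 12.4 CPM in PBS libraries, and 5.69, 5.57 and 4.25 CPM in Normoxic libraries. All 6 OIR libraries lay above the Normoxic ones, while the Gel and PBS libraries overlapped. H2-Q4 rose 3.30-fold in PBS over Normoxic retinas (log2 1.72 ± 0.22, edgeR adjusted p = 0.00176) and 2.42-fold in Gel over Normoxic retinas (log2 1.28 ± 0.22, edgeR adjusted p = 0.0207). The call in Gel was lost without any 1 of the 3 Normoxic libraries, Gel 2 or Gel 3, with an adjusted p of up to 0.104. Heavy chain genes resemble each other: of the windows of 50 bases in GENCODE M21 transcripts, 24.3% of those of H2-Q4, 13.9% of those of H2-D1 and 6.87% of those of H2-K1 also occurred in another gene, most often H2-Q6, H2-Q1 and H2-D1 in that order. How reads from such stretches were shared out, and which H-2 haplotype the mice carry, are not given in the sources used here, so the split between heavy chain genes is uncertain.

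Tap1 (Entrez 21354) and Tap2 (Entrez 21355) encode the subunits of the peptide transporter, which works only as a pair. Tap1 had 10.4, 11.2 and 12.5 CPM in Gel libraries, 20.8, 16.8 and 14.8 CPM in PBS libraries, and 7.98, 7.32 and 4.38 CPM in Normoxic libraries. The groups did not overlap, and Normoxic 3 was the lowest of all libraries. Tap1 rose 2.68-fold in PBS over Normoxic retinas (log2 1.42 ± 0.21, edgeR adjusted p = 0.00351). In Gel over Normoxic retinas its log2 fold change of 0.81 ± 0.21 did not pass (edgeR adjusted p = 0.0996), but did so in DESeq2 (adjusted p = 0.0120), with no filter on low counts (0.0413) and without PBS 3 (0.0383). Tap2 had 11.7, 12.5 and 12.7 CPM in Gel libraries, 17.6, 16.5 and 13.2 CPM in PBS libraries, and 11.9, 12.4 and 8.92 CPM in Normoxic libraries. The Gel libraries lay within or beside the Normoxic range, and PBS 3 came close to both. Tap2 had a log2 fold change of 0.52 ± 0.15 in PBS over Normoxic retinas (edgeR adjusted p = 0.0744), which passed in DESeq2 (adjusted p = 0.0299) and without PBS 3 (0.0338). Its value in Gel over Normoxic retinas was 0.16 ± 0.15 (edgeR adjusted p = 0.697).

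Tapbp (Entrez 21356) encodes tapasin, the chaperone that ties the transporter to an empty class I molecule. It had 61.9, 71.2 and 70.6 CPM in Gel libraries, 94.2, 79.6 and 79.4 CPM in PBS libraries, and 56.8, 62.1 and 59.5 CPM in Normoxic libraries. Gel 1 fell inside the Normoxic range, and the PBS libraries stood above all others. Tapbp rose 1.43-fold in PBS over Normoxic retinas (log2 0.51 ± 0.11, edgeR adjusted p = 0.0192), a call lost without PBS 1 or any 1 of the 3 Normoxic libraries (adjusted p up to 0.0927). For Gel over Normoxic retinas the log2 fold change was 0.20 ± 0.11 (edgeR adjusted p = 0.482).

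Psmb8 (Entrez 16913) and Psmb9 (Entrez 16912) encode LMP7 and LMP2, catalytic subunits that replace constitutive ones in the immunoproteasome and change which peptides are cut. Psmb8 had 5.29, 9.90 and 7.47 CPM in Gel libraries, 14.0, 8.66 and 13.6 CPM in PBS libraries, and 4.60, 3.78 and 1.70 CPM in Normoxic libraries. Normoxic 3 was far below the other Normoxic libraries, and Gel 2 lay above PBS 2. Psmb8 rose 3.64-fold in PBS over Normoxic retinas (log2 1.87 ± 0.35, edgeR adjusted p = 0.0111). In Gel over Normoxic retinas its log2 fold change of 1.19 ± 0.35 did not pass (edgeR adjusted p = 0.147), but did so in DESeq2 (adjusted p = 0.0205) and with no filter on low counts (0.0474). Psmb9 had 1.92, 2.69 and 2.61 CPM in Gel libraries, 3.38, 2.90 and 4.90 CPM in PBS libraries, and 0.989, 1.69 and 0.751 CPM in Normoxic libraries. These rest on few reads, 57 to 96 counts in Gel, 85 to 174 in PBS and 23 to 55 in Normoxic libraries, and the groups did not overlap. Psmb9 rose 3.28-fold in PBS over Normoxic retinas (log2 1.72 ± 0.35, edgeR adjusted p = 0.0151), a call lost without Normoxic 1 (adjusted p = 0.0734) or Normoxic 3 (0.0686). The log2 fold change in Gel over Normoxic retinas was 1.08 ± 0.35 (edgeR adjusted p = 0.181).

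Nlrc5 (Entrez 434341) encodes a transactivator that binds class I promoters. It had 2.46, 1.93 and 1.31 CPM in Gel libraries, 6.59, 3.95 and 1.32 CPM in PBS libraries, and 0.989, 0.708 and 0.719 CPM in Normoxic libraries. PBS 1 was 4.99 times PBS 3, the widest spread of the 10 genes within a group, and PBS 3 lay in the Gel range. Nlrc5 rose in PBS retinas to 3.96 ± 2.64 CPM, against 0.805 ± 0.159 CPM in Normoxic retinas (SD, n = 3 each), a log2 fold change of 2.29 ± 0.50 (4.89-fold, edgeR adjusted p = 0.0220). The call was lost in limma-voom (adjusted p = 0.0986), without any 1 of the 3 Normoxic libraries (up to 0.1002) and without PBS 1 (0.0647, log2 fold change 1.70). In Gel over Normoxic retinas its log2 fold change was 1.25 ± 0.51 (edgeR adjusted p = 0.311).

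In Gel over Normoxic retinas, 4 of the 10 genes were called higher: B2m, H2-K1, H2-D1 and H2-Q4, the light chain and the heavy chains. None was called lower, and 1.12% of all genes tested were called higher and 0.288% lower. The transporter, tapasin, immunoproteasome and transactivator genes were not called, with log2 fold changes of 0.16 to 1.25. CPM of the Gel and Normoxic libraries did not overlap for 8 of the 10 genes, all but Tap2 and Tapbp and all higher in Gel, as for 11.1% of all genes tested. The median log2 fold change was 1.13, against 0.00 for all genes. The count was 2 without Normoxic 1, Normoxic 2 or Gel 2, and 5 without PBS 3, whose addition was Tap1. The comparisons of PBS and of Gel with Normoxic share the Normoxic libraries, so their values are not independent of each other. Likewise, Gel over PBS shares the PBS libraries with PBS over Normoxic and the Gel libraries with Gel over Normoxic. A high PBS library thus raises the estimate in PBS over Normoxic and lowers that in Gel over PBS.

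**Figure D2:**
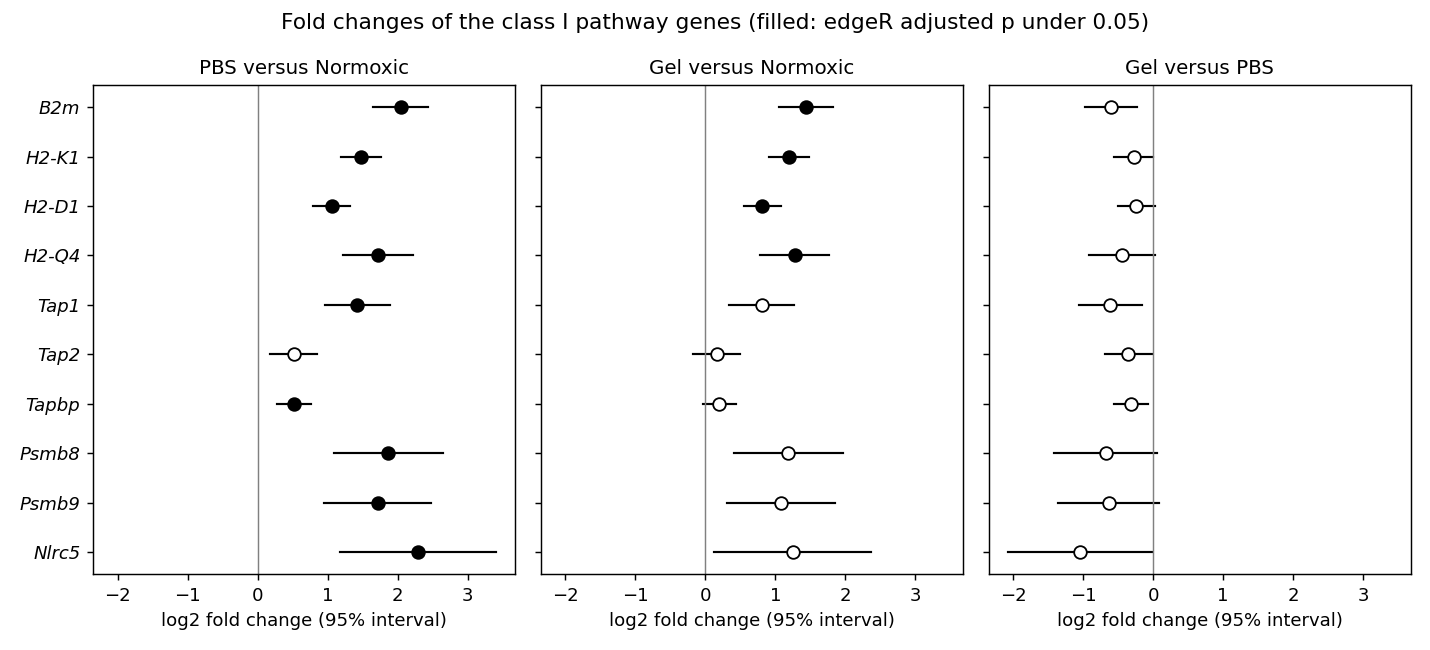
Log2 fold changes of the 10 genes in PBS over Normoxic, Gel over Normoxic and Gel over PBS retinas from the edgeR fit to 9 libraries; points are estimates, lines are 95% intervals, and filled points were called at an adjusted p under 0.05. Filled points number 9 in the first panel, 4 in the second and 0 in the third, where all 10 estimates lie between -1.04 and -0.24. The intervals are per gene and not adjusted for the number of genes tested.

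Against PBS, all 10 genes had lower estimates in Gel retinas, and none was called. The edgeR log2 fold changes ran from -1.04 for Nlrc5 to -0.24 for H2-D1, with a median of -0.52 against -0.01 for all genes tested. Of all genes tested, 0% were called higher and 0% lower in this comparison, while 961 had an unadjusted edgeR p under 0.05. DESeq2 called 10 genes higher and 50 lower over the whole table, none of them among the 10, and limma-voom called 0. Unadjusted edgeR p-values were under 0.05 for 5 of the 10 genes: B2m (0.00475), Tap1 (0.0120), Tapbp (0.0155), Tap2 (0.0386) and Nlrc5 (0.0479). This count was 1 without PBS 1, 3 without Normoxic 1, Gel 1 or Gel 3, and 8 without PBS 2. CPM of the Gel libraries lay wholly below those of the PBS libraries for 7 of the 10 genes, all but H2-Q4, Psmb8 and Nlrc5, as for 5.15% of all genes tested, while 2.73% lay wholly above.

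The Gel against PBS intervals show how large a difference the 3 libraries per group leave room for. Each interval is per gene and not adjusted for the number of genes tested, so an interval that leaves out 0 is not a call. B2m averaged 47.3 ± 7.67 CPM in Gel and 71.6 ± 14.2 CPM in PBS retinas (SD, n = 3 each), a log2 fold change of -0.60 with a 95% interval of -0.98 to -0.23 (edgeR adjusted p = 0.612). Without PBS 3 the estimate was -0.39. Tap1 averaged 11.4 ± 1.02 CPM in Gel and 17.5 ± 3.03 CPM in PBS retinas, a log2 fold change of -0.62 with an interval of -1.07 to -0.16 (edgeR adjusted p = 0.687). Of the other transport and loading genes, Tap2 had an interval of -0.69 to -0.02 and Tapbp one of -0.55 to -0.07. The heavy chains had estimates of -0.24 for H2-D1, -0.28 for H2-K1 and -0.44 for H2-Q4, with intervals of -0.51 to 0.02, -0.56 to 0.00 and -0.91 to 0.03. Without PBS 1 these estimates were -0.12 for H2-D1, -0.15 for H2-K1 and -0.13 for H2-Q4. Psmb8 and Psmb9 had estimates of -0.68 and -0.64, with intervals of -1.42 to 0.06 and -1.36 to 0.09, and the estimate of Psmb9 was -0.35 without PBS 3. Nlrc5, at -1.04 with an interval of -2.08 to -0.01, depended on the PBS libraries: the estimate was -0.45 without PBS 1 and -1.45 without PBS 3.

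Levels between genes were compared in FPKM, which divides by gene length. In Gel retinas H2-D1 at 55.5 ± 2.90 FPKM and B2m at 55.1 ± 8.94 FPKM (SD, n = 3) overlapped at the top, followed by Tapbp at 24.7 ± 1.88 and H2-K1 at 20.8 ± 1.02 FPKM. In PBS retinas B2m at 83.4 ± 16.6 FPKM and H2-D1 at 65.8 ± 9.92 FPKM overlapped at the top, followed by Tapbp at 30.7 ± 3.09 and H2-K1 at 25.3 ± 4.01 FPKM, which also overlapped. In Normoxic retinas H2-D1 led at 31.8 ± 1.68 FPKM, above Tapbp at 21.6 ± 0.964 and B2m at 20.5 ± 1.39 FPKM, which overlapped, and H2-K1 stood at 9.17 ± 0.686 FPKM. H2-Q4, Psmb8, Tap2 and Tap1 filled the next 4 places in all 3 groups, at 3.85 to 6.94 FPKM in Gel, 5.92 to 9.87 FPKM in PBS and 2.22 to 4.45 FPKM in Normoxic retinas. H2-Q4 and Psmb8 overlapped in each group, as did Psmb8 and Tap2, and Psmb8 overlapped with Tap1 in Normoxic retinas. H2-Q4 overlapped with Tap2, and Tap2 with Tap1, in PBS retinas. H2-Q4 also overlapped with Tap1 in PBS and Normoxic retinas. Psmb9 was ninth at 1.88 ± 0.332 FPKM in Gel, 2.91 ± 0.815 in PBS and 0.893 ± 0.382 in Normoxic retinas. Nlrc5 was the lowest at 0.240 ± 0.0729 FPKM in Gel, 0.500 ± 0.333 in PBS and 0.102 ± 0.0201 in Normoxic retinas.

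The ratio of light chain to heavy chain RNA also differed between groups. B2m FPKM divided by the summed FPKM of H2-K1, H2-D1 and H2-Q4 was 0.563, 0.719 and 0.697 in Gel libraries, 0.633, 0.799 and 1.12 in PBS libraries, and 0.478, 0.445 and 0.477 in Normoxic libraries. The 6 OIR libraries all lay above the Normoxic ones, while Gel and PBS overlapped. PBS 3, with 1.12, stood highest. The summed heavy chains reached 83.3 ± 3.26 FPKM in Gel, 100.5 ± 17.0 in PBS and 43.9 ± 1.60 in Normoxic retinas (SD, n = 3 each). These ratios are a description, with no test, and B2m is the shortest of the genes, at 858 bases.

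Within the PBS group the libraries disagreed in a way that followed gene length. PBS 3 lay above the mean of the other PBS libraries for the 3 shortest genes, by 0.55 for B2m, 0.38 for Psmb8 and 0.71 for Psmb9 on the log2 scale. It lay below that mean for the other 7 genes, by 0.01 for H2-K1 up to 1.83 for Nlrc5, the longest gene at 7915 bases. PBS 1 was the highest PBS library for 8 of the 10 genes, and PBS 3 for B2m and Psmb9. In Gel 1 the same 3 short genes were low (B2m -0.44, Psmb8 -0.71 and Psmb9 -0.46 against the other Gel libraries) and Nlrc5 was high (0.60). Normoxic 3 differed in another way, with low Psmb8 (-1.25), Tap1 (-0.77), Psmb9 (-0.72), Tap2 (-0.42) and H2-Q4 (-0.38) beside B2m, H2-D1, H2-K1 and Tapbp at 0.02 to 0.16. With the length trend of each library removed, B2m in PBS over Normoxic retinas had a log2 fold change of 1.77, and the counts of 9 and 4 called genes did not change. The part of RNA quality in these differences was not tested.

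**Figure D3:**
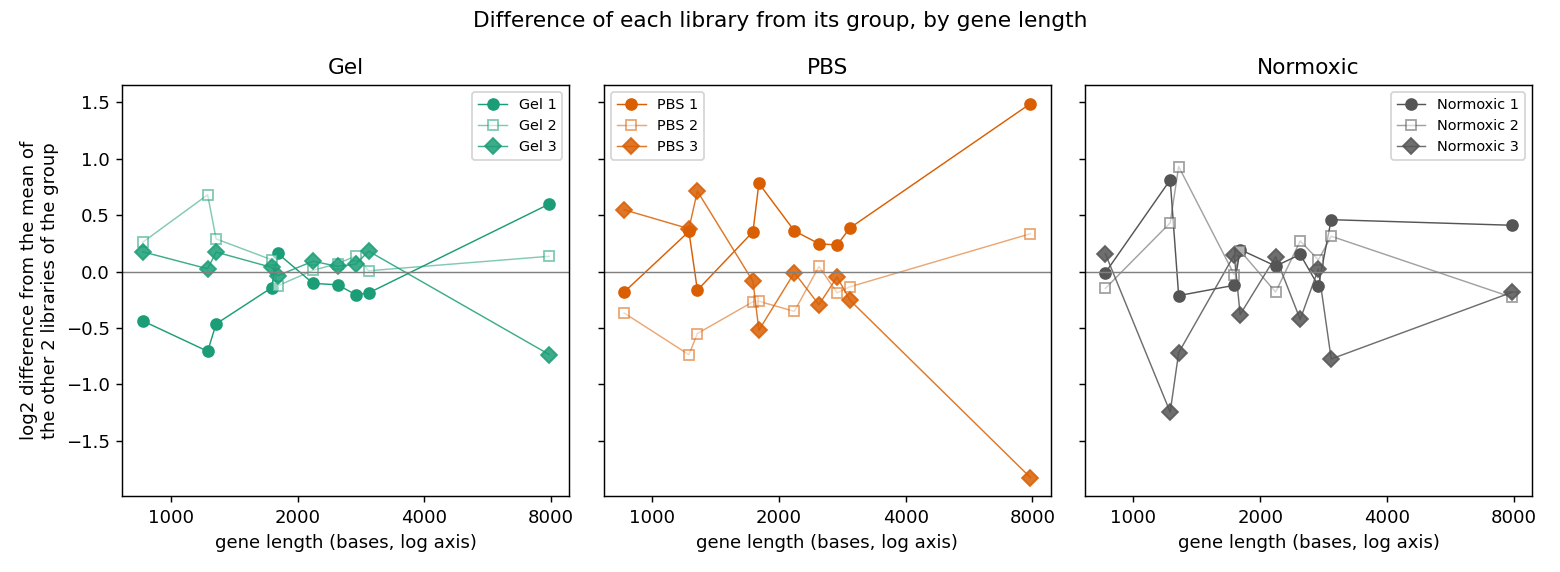
Log2 difference of each library from the mean of the other 2 libraries of its group (vertical axis) against gene length in bases (log axis) for the 10 genes, with 1 panel each for Gel, PBS and Normoxic and 1 line per library. In PBS 3 the line runs from 0.55 at B2m, the shortest gene, to -1.83 at Nlrc5, the longest.

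Immunoproteasome subunits were also set against the constitutive subunits they replace, since this ratio within a library does not depend on library scaling. Psmb8 as a share of Psmb5, in FPKM, was 4.84%, 5.64% and 4.90% in Gel libraries, 11.3%, 6.58% and 6.61% in PBS libraries, and 3.44%, 2.84% and 1.24% in Normoxic libraries. Psmb9 as a share of Psmb6 was 1.89%, 2.18% and 2.04% in Gel libraries, 3.43%, 2.72% and 2.64% in PBS libraries, and 0.971%, 1.59% and 0.695% in Normoxic libraries. Neither ratio overlapped between any groups, with Gel in the middle. The log2 difference in PBS over Normoxic retinas was 1.78 for Psmb8 and 1.51 for Psmb9, in Gel over Normoxic 1.16 and 0.99, and in Gel over PBS -0.62 and -0.52. Each had a two-sided exact permutation p of 0.1, the smallest that 3 against 3 libraries can give, or 0.1125 after Benjamini-Hochberg adjustment over 9 such tests, so none passed. With a pseudocount of 1 FPKM on both subunits the difference for Psmb9 was 0.80 in PBS over Normoxic, 0.47 in Gel over Normoxic and -0.34 in Gel over PBS retinas. The third pair, Psmb10 as a share of Psmb7, was 11.9%, 10.05% and 11.7% in Gel libraries, 15.03%, 13.7% and 13.1% in PBS libraries, and 9.79%, 10.8% and 10.6% in Normoxic libraries. Its log2 difference was 0.42 in PBS over Normoxic (exact permutation p = 0.1), 0.11 in Gel over Normoxic (exact permutation p = 0.3) and -0.31 in Gel over PBS retinas (exact permutation p = 0.1). Psmb5, Psmb6 and Psmb7 were themselves high in PBS 3, with 168, 145 and 154 FPKM, against 101 to 108, 76.9 to 83.0 and 88.1 to 94.1 FPKM in PBS 1 and PBS 2.

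**Figure D4:**
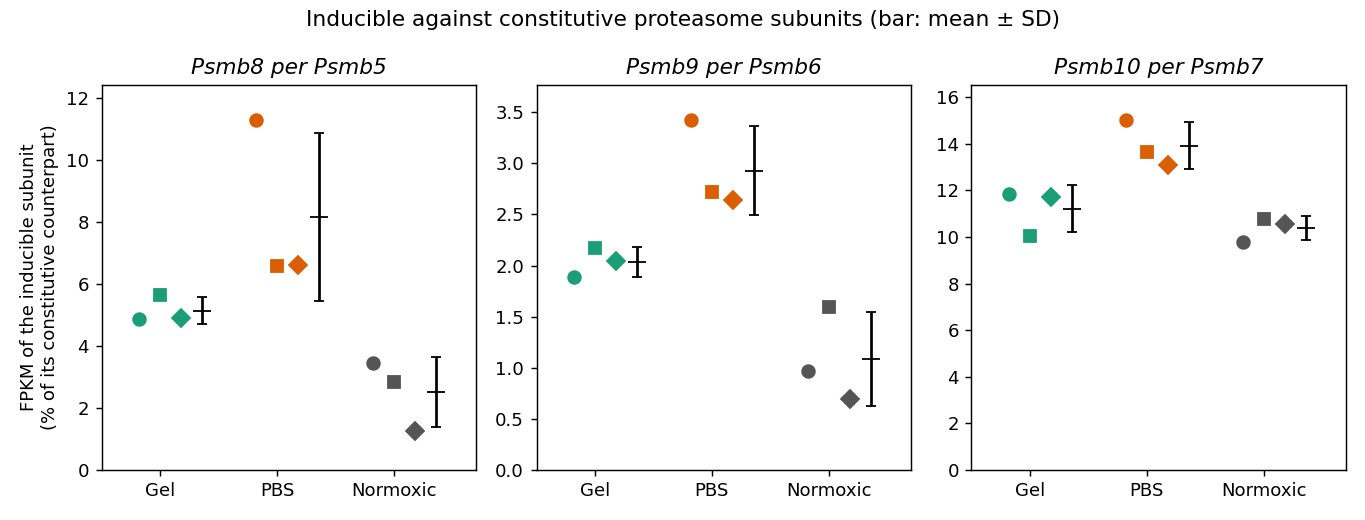
FPKM of Psmb8, Psmb9 and Psmb10 as a percentage of their constitutive counterparts Psmb5, Psmb6 and Psmb7 in the 3 Gel, 3 PBS and 3 Normoxic libraries; circles, squares and diamonds are replicates 1, 2 and 3, bars are means ± SD, and axes start at 0. PBS points lie above Gel points and Gel points above Normoxic points for Psmb8 and Psmb9, while Gel and Normoxic overlap for Psmb10.

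Other genes of the route were read from further lists. Of 10 further processing and loading genes, 3 were called higher in PBS over Normoxic retinas, 0 lower, and 0 in either comparison with Gel, with a median log2 fold change of 0.47 in PBS over Normoxic. They were Pdia3, the ERp57 partner of tapasin (log2 0.69 ± 0.16, edgeR adjusted p = 0.0249), Psme2, a subunit of the PA28 proteasome activator (0.60 ± 0.14, 0.0334), and Psmb10, the last immunoproteasome subunit (0.79 ± 0.21, 0.0472). This count was 0 without Normoxic 1 or Normoxic 2, and 1 without Normoxic 3, PBS 1, PBS 3 or Gel 2. Psme1, the other PA28 subunit, had a log2 fold change of 0.41 ± 0.23 (edgeR adjusted p = 0.333), and the peptide trimming enzyme Erap1 had 0.66 ± 0.19 (0.0632). None of the 14 constitutive core proteasome genes was called in any comparison, with 1 at an unadjusted edgeR p under 0.05 in PBS over Normoxic retinas and 0 in the others, and a median log2 fold change of 0.34 in PBS over Normoxic. Of all 17362 genes tested, 3711 had such a p in PBS over Normoxic, 2298 in Gel over Normoxic and 961 in Gel over PBS retinas.

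Of 19 other class I heavy chain and related genes, 13 were tested, and 5 were called higher in PBS over Normoxic retinas, with a median log2 fold change of 0.94. They were H2-Q2 (log2 2.71 ± 0.48, edgeR adjusted p = 0.00745), H2-T22 (0.94 ± 0.17, 0.00905), H2-T23, the mouse Qa-1 gene (1.47 ± 0.31, 0.0173), the neonatal Fc receptor gene Fcgrt (1.05 ± 0.24, 0.0288) and H2-M3 (1.09 ± 0.27, 0.0407). H2-M3 was named because only 5 were called, after its values were seen. The count was 3 without Normoxic 2 or PBS 1, 2 without Normoxic 3 and 1 without Normoxic 1, which was H2-Q2. None of the 13 was called in Gel over Normoxic or Gel over PBS retinas. There 3 and 6 had an unadjusted edgeR p under 0.05, as had 2298 and 961 of all 17362 genes tested.

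Of 25 genes that regulate class I, 23 were tested, and 4 were called higher in PBS over Normoxic retinas, among them Irf8, Irf1 and Irf9. The median over the 23 was 0.12, so the list as a whole lay near the median of all genes. Irf1, which binds interferon response elements, rose 1.72-fold in PBS over Normoxic retinas (log2 0.78 ± 0.16, edgeR adjusted p = 0.0183). Irf9 had a log2 fold change of 0.96 ± 0.21 (edgeR adjusted p = 0.0206) and Irf8, a factor of microglia and other myeloid cells, 1.58 ± 0.26 (0.00540). Irf8 was also the gene called in Gel over Normoxic retinas (1.27 ± 0.26, edgeR adjusted p = 0.0419). The call of Irf1 was lost without Normoxic 1, Normoxic 2 or PBS 1, and that of Irf9 without Normoxic 2, Normoxic 3 or PBS 1. The count was then 1 without Normoxic 2 or PBS 1 and 2 without Normoxic 3, and the call in Gel was lost without any 1 of the Normoxic or Gel libraries. Ifng, which encodes interferon gamma, had 0 counts in 8 libraries and 1 count in Normoxic 3, and 3 counts, the limit that a count of 0 allows, would be 0.0841 to 0.102 CPM, counting error only.

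Class II molecules present peptides to CD4 T cells and use other chains. Of 10 class II genes, 7 were tested, and H2-Ab1 (log2 2.50 ± 0.33, edgeR adjusted p = 0.00196) and Cd74, the invariant chain (2.50 ± 0.38, 0.00371), were called higher in PBS over Normoxic retinas. Cd74 was called in Gel over Normoxic retinas too (log2 2.17 ± 0.38, edgeR adjusted p = 0.0207), a call lost without Gel 3 or any 1 of the Normoxic libraries. The class II transactivator gene Ciita had a log2 fold change of -0.38 ± 0.36 in PBS over Normoxic retinas (edgeR adjusted p = 0.564) and was named after its values were seen. Cd74 itself was at 1.402 to 2.46 CPM in Gel, 2.08 to 2.74 CPM in PBS and 0.229 to 0.585 CPM in Normoxic libraries, far below the class I chains.

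Markers of the cell types a retina can hold were followed beside the class I genes. In bulk tissue, more or fewer cells of a type and more or less RNA per cell cannot be told apart. Of 17 microglia and macrophage markers, all tested, 13 were called higher in PBS and 7 in Gel over Normoxic retinas, and none lower. Their summed level was 158 to 213 CPM in Gel, 219 to 322 CPM in PBS and 83.8 to 96.4 CPM in Normoxic libraries, against 280 to 318, 356 to 444 and 178 to 182 CPM for the 10 class I genes. The count of 7 in Gel was 1 without Normoxic 1, Normoxic 2 or Gel 2, 3 without Gel 3 and 11 without PBS 3. Csf1r, the receptor on which microglia depend, rose 2.44-fold in Gel over Normoxic retinas (log2 1.29 ± 0.13, edgeR adjusted p = 0.00101) and 2.29-fold in PBS over Normoxic retinas (1.20 ± 0.13, 0.000549). Between Gel and PBS its log2 fold change was 0.09 with a 95% interval of -0.18 to 0.36 (edgeR adjusted p = 0.987), where B2m had -0.60. Csf1r does not stand for its list here. Over the 17 markers the median in Gel over PBS retinas was -0.52, as for the 10 class I genes. None of the 17 was called in that comparison, and 4 had an unadjusted edgeR p under 0.05, as had 961 of all 17362 genes tested. The complement genes C1qa, C1qb and C1qc rose 4.50 to 4.98-fold in PBS over Normoxic retinas.

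Of 12 endothelial markers, 6 were called higher and 1, Kdr, lower in PBS over Normoxic retinas, and 3 higher in Gel over Normoxic retinas. Their summed level was 481 to 497 CPM in Gel, 425 to 490 CPM in PBS and 391 to 444 CPM in Normoxic libraries. The median log2 fold change of the 12 was larger than this sum shows, 0.86 in PBS and 0.77 in Gel over Normoxic retinas. In each of these comparisons 10 had an unadjusted edgeR p under 0.05, as had 3711 and 2298 of all 17362 genes tested. The count of 6 was 3 without Normoxic 1 or Normoxic 2, the call of Kdr was lost without any 1 Normoxic library, PBS 1 or Gel 3, and the count of 3 in Gel was 0 without Normoxic 2, Gel 2 or Gel 3, 1 without Normoxic 1 and 7 without PBS 3. Pecam1, a junction protein of vessel cells, rose 1.83-fold in PBS over Normoxic retinas (log2 0.88 ± 0.17, edgeR adjusted p = 0.0140), a call lost without Normoxic 1 or Normoxic 2. Of 9 Müller glia markers, 1 (Vim) was called higher and 2 lower in PBS over Normoxic retinas, and 0 in Gel over Normoxic retinas. The 2 lower calls were 1 without any 1 library other than PBS 2, the higher call became 2 without PBS 2 or Gel 1, and 1 marker was called higher in Gel without PBS 3. Of 5 astrocyte markers, 3 were called higher in PBS over Normoxic retinas, led by Gfap at 3.62 ± 0.26 on the log2 scale (edgeR adjusted p = 0.000132), and 2 in Gel over Normoxic retinas, or 1 without PBS 2, Gel 2, Gel 3 or any 1 Normoxic library. Their summed level was 152 to 203 CPM in Gel, 295 to 461 CPM in PBS and 69.9 to 94.8 CPM in Normoxic libraries. A sum follows its most abundant markers. The median log2 fold change of the 5 was 0.72 in PBS and 0.33 in Gel over Normoxic retinas. Of 6 pigment epithelium markers none was called in any comparison, although 3 were called higher in Gel over Normoxic retinas without PBS 3, and their summed level was 115 to 186 CPM in Gel, 52.7 to 223 CPM in PBS and 29.3 to 82.8 CPM in Normoxic libraries. The part of these cell types in the class I result was not tested.

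Of 16 lymphocyte and NK cell markers, 2 were tested, among them Cd8a. Cd8a had 62, 97 and 119 counts in Gel libraries, 111, 69 and 137 counts in PBS libraries, and 20, 33 and 18 counts in Normoxic libraries. It rose 4.29-fold in PBS over Normoxic retinas (log2 2.10 ± 0.33, edgeR adjusted p = 0.00468) and 3.65-fold in Gel over Normoxic retinas (1.87 ± 0.33, 0.0231), the second call being lost without any 1 Normoxic library, Gel 2 or Gel 3. Cd3d, Cd3g, Cd8b1, Nkg7, Klrb1c, Klrd1, Gzma and the B cell marker Ms4a1 had 0 to 4 counts in every library, and Cd4 averaged 0.207 ± 0.163 CPM in Gel, 0.260 ± 0.146 in PBS and 0.152 ± 0.0388 in Normoxic retinas (SD, n = 3 each). The CD3 and CD8 beta chains that accompany CD8 alpha on conventional CD8 T cells were thus at or near 0. The summed level of the listed markers was 3.23 to 4.39 CPM in Gel, 3.20 to 4.75 CPM in PBS and 1.43 to 1.97 CPM in Normoxic libraries, of which Cd8a made up most in the OIR libraries.

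**Figure D5:**
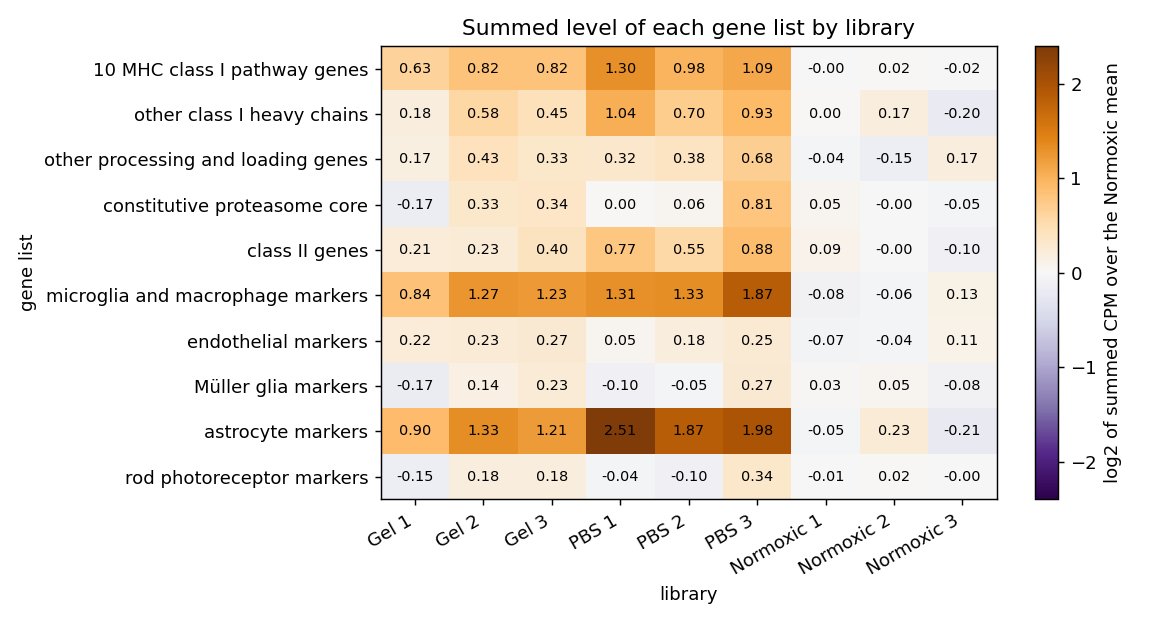
Summed CPM of the 10 class I pathway genes and of 9 other gene lists in each of the 9 libraries, as log2 of the sum over the mean of the Normoxic libraries; each cell shows its value and colour runs from low to high around 0. The class I row holds 0.63 to 0.82 in Gel, 0.98 to 1.30 in PBS and -0.02 to 0.02 in Normoxic libraries, and the microglia row 0.84 to 1.27, 1.31 to 1.87 and -0.08 to 0.13.

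The genes whose pattern over the 9 libraries was most like the mean pattern of the 10 class I genes were found by the root mean square difference of log2 CPM, each gene centred on its own mean, among 14769 other genes averaging 1 CPM or more. They were Tnfrsf1a (0.12), Ccn2 (0.13), Cmtm3 (0.14), Msn (0.14) and Fstl3 (0.15). Tnfrsf1a, which encodes a tumour necrosis factor receptor, averaged 19.1 ± 0.840 CPM in Gel, 28.3 ± 6.87 CPM in PBS and 9.42 ± 0.302 CPM in Normoxic retinas (SD, n = 3 each). Msn, which encodes the membrane linker moesin, averaged 51.0 ± 5.49 CPM in Gel, 78.5 ± 15.9 CPM in PBS and 28.2 ± 0.880 CPM in Normoxic retinas. All 5 therefore share with the class I genes the order PBS, Gel, Normoxic of the group means, which is what the measure selects.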

How the data were processed

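RNA of 9 mouse retina libraries was measured. The deposited table holds whole-number counts per gene; per the submitters' processing notes the authors used Bowtie2, RSEM 1.3.1, DESeq2 1.4.5 and GRCm39, with no role given for any. The sources used here do not say whether the counts are rounded RSEM estimates or whether strand was kept. The deposited FPKM equal count over library total over 1 length per gene (relative spread at most 2.9e-10), so they add length only. Samples were grouped by their labels, and no sample was left out of the fit.

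Genes passing filterByExpr (minimum count 10; 17362 kept) were tested in R 4.3.3 with the edgeR 4.0.16 quasi-likelihood F test, TMM scaling, all 9 libraries, group as the only term, and Benjamini-Hochberg adjustment. The common dispersion was 0.0312, and the test was checked on simulated data. SE is the log2 fold change over the square root of F. CPM use library totals, and 95% intervals are of log2 fold changes, per gene and not adjusted for the number of genes. Ratios were tested by exact permutation (scipy 1.17.1), 2-sided. Alternatives were RLE scaling, DESeq2 1.42.0, limma-voom 3.58.1, no filter, the 2 compared groups alone, a replicate block, removal of the length trend, a pseudocount of 1 FPKM on the ratios, and leaving out each library. Likeness used a pseudocount of 0.1 CPM.

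All 10 genes are described. From every other list, up to 4 genes with the smallest p in PBS over Normoxic could be named, plus Psmb10, Psme1, Psme2, Irf1, Cd74, Cd8a, Csf1r and Pecam1; those printed, and others said to be so, were picked after their values were seen. Some genes of the lists are not reported here. The genes, lists and rules were chosen with earlier results of these data known.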

Additional observations from a re-analysis of the deposited data

How the results depend on the processing

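All 10 genes kept their direction in each of the 3 comparisons under every alternative. The median over all genes, near 0 in each, changed sign without PBS 3 in PBS over Normoxic and Gel over PBS (-0.0037 and 0.0069). In Gel over Normoxic it was 0.0007 in the main fit. It was negative there in limma-voom (-0.0039), with a replicate block (-0.0058) and without PBS 2 (-0.0028), Gel 1 (-0.0026) or Gel 2 (-0.0072). Over all genes, against main counts of 748 higher and 353 lower in PBS over Normoxic, 195 and 50 in Gel over Normoxic, and 0 and 0 in Gel over PBS, DESeq2 called 1144 and 714, 535 and 234, and 10 and 50 in that order. With no filter, 318 were called higher in Gel over Normoxic, and 3 higher and 21 lower in Gel over PBS. With only the compared groups, 214 were lower in PBS over Normoxic, and 428 higher and 215 lower in Gel over Normoxic. With the length trend removed, Gel over Normoxic gave 327 higher and 109 lower, and Gel over PBS 1 and 2. Leaving out 1 library at a time gave 371 to 797 higher and 83 to 415 lower in PBS over Normoxic, 44 to 494 and 3 to 241 in Gel over Normoxic, and 0 to 1 and 0 to 11 in Gel over PBS. Of the 10 class I genes, 6 to 10 and 2 to 5 were then called in the comparisons with Normoxic and 0 in Gel over PBS. DESeq2 called 10, 6 and 0 of them, limma-voom 8, 4 and 0. The causes were not tested. Leaving out a library moved the log2 ratio of Psmb8 to Psmb5 to 1.34 to 2.07, 0.71 to 1.45 and -0.76 to -0.37 in PBS over Normoxic, Gel over Normoxic and Gel over PBS, that of Psmb9 to Psmb6 to 1.23 to 1.82, 0.71 to 1.31 and -0.59 to -0.40, and that of Psmb10 to Psmb7 to 0.37 to 0.47, 0.07 to 0.19 and -0.36 to -0.24. Libraries share only a replicate number: correlations of same-numbered deviations were -0.10 to -0.04 with Normoxic and -0.21 to 0.36 between Gel and PBS, and not every library correlated best with its own number. With this number as a replicate block, 9, 4 and 0 of the class I genes were called, as without it, those of H2-M3 and Kdr in PBS over Normoxic were lost, and the ratios kept their values, with a smallest possible exact p of 0.25. Among the 10 class I genes, Psmb9 and Nlrc5 rest on the fewest counts, with 22 to 55 counts in Normoxic libraries.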

Other observations

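The 4 genes called in Gel over Normoxic retinas (B2m, H2-K1, H2-D1 and H2-Q4) are also the 4 of 8 genes whose promoter window holds the IRF core AANNGAAA. This was noticed after the values were seen and was given no test. It also hangs on the threshold. Psmb8, Psmb9 and Tap1, without the core and not called, had log2 fold changes of 1.19, 1.08 and 0.81. H2-D1 had 0.81 and H2-K1 1.19. DESeq2 and the fit with no filter on low counts also called Tap1 and Psmb8. The calls of H2-D1 and H2-Q4 were lost without some libraries. The 3 heavy chain windows resemble each other, at 83.1% to 88.9% identity over aligned bases, so they do not count as independent cases.

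Cd8a was called higher in both OIR groups while Cd8b1, its partner chain on conventional CD8 T cells, had at most 1 count in any library.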
